A study of Homo sapiens with 6 samples.

Results

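The baseline transcriptome of OVCAR8, a wild type human cell line labelled as ovarian cancer cells, was described from the 3 samples kept in DMSO, the drug solvent, for 72 h. These are 3 of the 6 samples of the series, and all 38637 genes of the deposited table were read in each of them. The study set them against cells given pladienolide B, an inhibitor of the splicing factor SF3B1, and those 3 samples were not used here. All samples come from 1 cell line grown with serum, so they show the spread between samples of that line and not between patients, and no source says whether they were separate cultures.

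A poly(A) transcriptome of a cultured carcinoma line is dominated by transcripts of protein synthesis, glycolysis and the cytoskeleton, on which lineage factors, adhesion genes and secreted factors are laid at lower levels. Epithelial cells are held together by E-cadherin and claudins and keep keratin filaments, whereas mesenchymal cells use N-cadherin, vimentin and fibronectin. In most high-grade serous ovarian cancers PAX8, WT1 and the surface proteins mesothelin and CA-125 mark the lineage, and homologous recombination, the repair route of BRCA1 and BRCA2, is often impaired.

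The deposited values are reads adjusted to a common depth. The whole reads behind them were recovered, and they came to 26130882, 25006154 and 26015151 on genes in replicates 1, 2 and 3, which is the order of every triplet given here. A level is the adjusted value per kilobase of exon, scaled to sum to 1000000 in each sample, so that genes of unlike length can be compared. A gene was called on where its level was at least 1 in each replicate, off where no replicate had over 3 reads, and low otherwise. A count of 3 reads was 0.115 to 0.12 reads per 1000000 in these libraries, which is the limit below which absence cannot be told from low expression. Replicate 2 stood apart from the other samples, as described after the gene groups, and every mean ± SD includes it.

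Translation genes led the genes listed. EEF1A1, the elongation factor that brings aminoacyl-tRNA to the ribosome, had the highest level of these at 12321 ± 249 (SD, n = 3). Its reads were 467156, 476855 and 477903. GAPDH, a glycolytic enzyme, followed at 9873 ± 328. Of the 100 highest genes, 50 were cytosolic ribosomal proteins, 5 were translation factors and 5 were mitochondrial RNAs. The ribosomal protein genes RPS18, RPS2, RPL8, RPS10, RPLP0, RPL7A and RPSA and the elongation factor gene EEF1G were among the 20 highest, with levels from 3656 for RPSA to 7435 for RPS18.

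Many transcripts of the translation machinery begin with a run of pyrimidines after a cytosine, a feature known as a terminal oligopyrimidine tract, through which mTOR signalling controls their translation. The starts shown were chosen by letters, as those of the 7 highest genes with CTTTC or CTTTT in the window and the 3 highest with neither. Only genes with exons of at least 200 bases and a start in the table used were taken, with 1 chromosome not used here. A word in the window does not show that the transcript begins with a tract. Each line covers 10 bases before and 20 bases from the annotated start in RefSeq (GRCh38.p14), read 5′ to 3′ on the gene's strand, and capitals mark CTTTC or CTTTT on the sense strand. For a gene with several starts it is 1 of them.
EEF1A1 (chr6:73521013-73521042, minus strand): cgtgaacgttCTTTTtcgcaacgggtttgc
TMSB10 (chr2:84905646-84905675, plus strand): ccgctCTTTTgtttcttgctgcagcaacgc
RPS10 (chr6:34426050-34426079, minus strand): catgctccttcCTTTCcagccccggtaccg
RPL7A (chr9:133348208-133348237, plus strand): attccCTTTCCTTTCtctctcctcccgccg
RPSA (chr3:39406710-39406739, plus strand): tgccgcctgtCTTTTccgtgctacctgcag
NPM1 (chr5:171387839-171387868, plus strand): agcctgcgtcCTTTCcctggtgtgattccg
RPL35 (chr9:124861938-124861967, minus strand): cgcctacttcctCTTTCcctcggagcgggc
GAPDH (chr12:6535254-6535283, plus strand): gtgcatccctgtccggatgctgcgcctgcg
RPS18 (chr6:33272065-33272094, plus strand): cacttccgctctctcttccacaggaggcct
EEF1G (chr11:62573872-62573901, minus strand): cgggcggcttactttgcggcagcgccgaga

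Of the 100 highest protein-coding genes, 82 had a start in that table and 35 of them (42.7%) held CTTTC or CTTTT in this window. Over all 27305 starts of the table the share was 7.39%, and over the genes on in OVCAR8 with a start it was 6.56%. The lines for GAPDH, RPS18 and EEF1G hold neither word, although RPS18 has a pyrimidine run of other letters. In the line for TMSB10 the word lies wholly before the annotated start. These shares describe letters in a window and not a measured translation rate.

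Cytoskeleton, glycolysis and metal-binding genes made up much of the rest of the highest 100. TMSB10, which binds actin monomers, had levels of 6290, 6463 and 6309. Cytoplasmic actin ACTB had levels of 5941, 6025 and 5536, and its paralogue ACTG1 averaged 2922. ANXA2, a membrane-binding annexin, averaged 3923 ± 146. Glycolysis was represented by ENO1 at 3839 ± 118, PKM at 2370, ALDOA at 1753, LDHA at 1730 and TPI1 at 1699. MT2A, a metallothionein that binds zinc and copper, was at 3727 ± 46. Iron storage genes FTH1 and FTL were at 2599 and 2037, and HMGA1, a chromatin protein of embryonic and tumour cells, was at 2692.

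The ranking by reads favours long transcripts and gave a different order. FN1, fibronectin, came after EEF1A1 and GAPDH with 129140, 112251 and 125891 reads. The mitochondrial ribosomal RNA RNR2 had 120372, 118941 and 117385 reads, and ACTB had 118840, 118232 and 110301. HSP90AA1, ENO1, VIM, EEF2 and TUBB completed the 10 genes with most reads. These 10 genes held 5.18% ± 0.08 of all adjusted reads, the first 100 held 17.3% ± 0.25, and the first 1000 held 48.1% ± 0.35 (SD, n = 3).

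**Figure D1:**
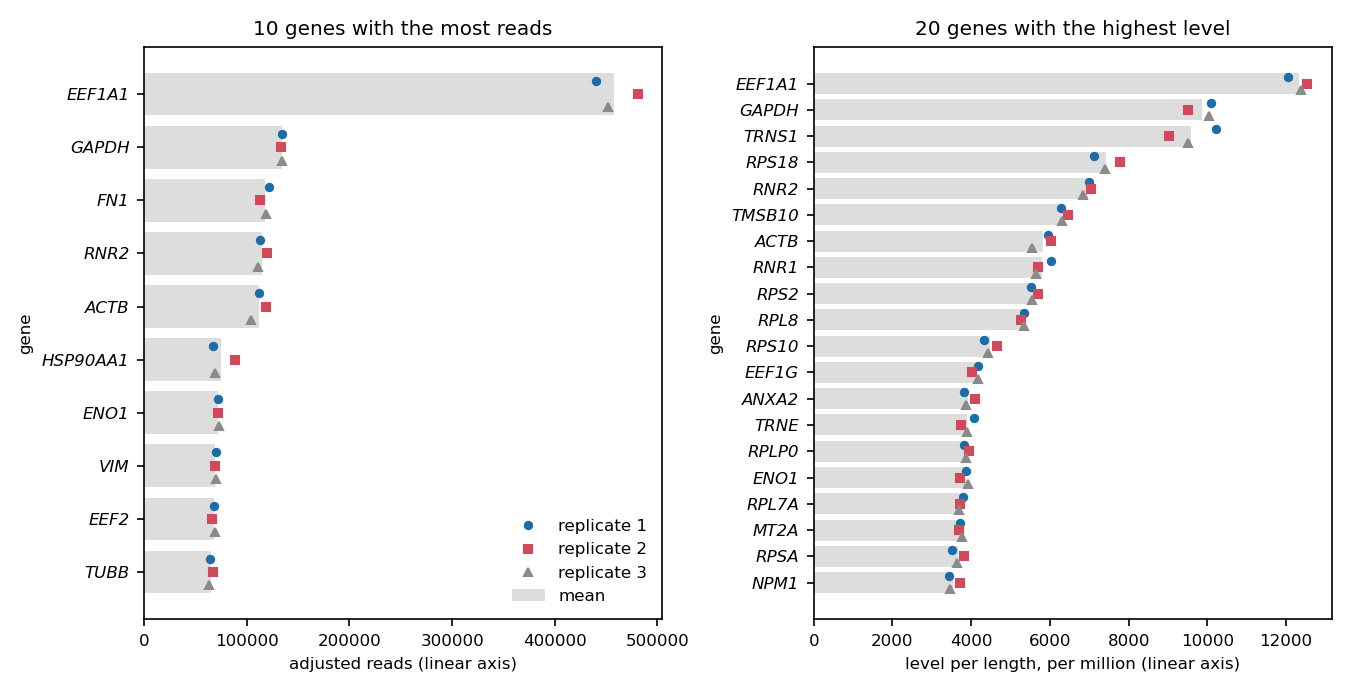
Left, the 10 genes with the most reads (x axis, adjusted reads); right, the 20 genes with the highest level per length (x axis, level per 1000000). Bars are means and points the 3 replicates. EEF1A1 stands above every other gene listed on both scales, and HSP90AA1 has its replicate 2 value apart from the other samples.

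Levels between genes rest on 1 annotated transcript for each gene, the canonical one of GENCODE v44. Using all exons of a gene merged in its place raised the level over 1.5 times in 122 and lowered it over 1.5 times in 56 of 411 named genes with a level of at least 1, with a median ratio of 1.25. Among the 20 highest genes, ANXA2 then stood at 960, NPM1 at 1023 and RPSA at 988. An order between genes given here therefore holds for the canonical lengths. TRNS1 and TRNE, mitochondrial tRNA genes shorter than a library fragment, had levels of 9577 and 3899, and their length makes these levels unreliable.

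Protein-coding genes held 97.3% ± 0.03 of the adjusted reads, and 12430 of the 19439 listed (63.9%) were on. Each count of genes on in a gene list below is to be read beside this share. Over all gene types 13823 of 38637 genes were on, 3999 were low, 19063 were off and 1752 had over 3 reads in a replicate but no length. The median level of the genes that were on was 20.5. There were 1825 genes at a level of 100 or more and 139 at 1000 or more. No read was seen in any replicate for 13288 genes.

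Long noncoding RNAs were listed nearly as often as coding genes but held 1.45% ± 0.02 of reads, and 881 of 14953 (5.89%) were on. NORAD, a noncoding RNA that binds the Pumilio proteins, had adjusted reads of 10756, 9921 and 10769. SENP3-EIF4A1 and TMX2-CTNND1 are readthrough transcripts, and VIM-AS1 and MIF-AS1 lie against VIM and MIF. The strand used in counting is not given in the sources used here, so reads of these 4 cannot be told from those of the genes they overlap. The same holds for TALAM1, antisense to MALAT1, at 6327, 5420 and 6016 adjusted reads, and for PINK1-AS at 1544, 1540 and 1560.

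Ribosomal RNA was 0.732% ± 0.017 of reads after poly(A) selection. Most of it was mitochondrial, from RNR2 and RNR1, while the nuclear precursor RNA45SN1 had adjusted reads of 4295, 4284 and 4020. The table lists 24 mitochondrial genes, all of them ribosomal or transfer RNAs, and they held 0.773%, 0.777% and 0.744% of reads. Mitochondrial protein-coding genes are not listed, so this share, the ranks and the shares of the highest genes leave them out. RNAs that lack a poly(A) tail were present at low counts. The signal recognition particle RNA RN7SL2 had adjusted reads of 621, 697 and 696, and RN7SK, which holds the elongation factor P-TEFb inactive, had 278, 268 and 269. Telomerase RNA TERC had 68.8, 71.6 and 58.4, and RPPH1 and RMRP, the RNAs of RNase P and RNase MRP, averaged 95.1 and 58.1.

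Transcribed pseudogenes held 0.341% ± 0.008 of reads, with 300 of 1171 on, led by ZNF542P at 9676, 9425 and 9232 adjusted reads. MicroRNA loci were mostly off, at 1833 of 1915, with 59 on, and MIR5047 at 415, 388 and 420 adjusted reads led them. At so short a locus few reads make a gene on. MIR3064, of 66 bases, had a level of 33.2 from 23.1 adjusted reads. Counts of genes on in types of short RNA are therefore not comparable with those of long genes. A precursor locus of this kind lies inside a longer transcript, and its reads are not a measure of the mature microRNA.

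**Figure D2:**
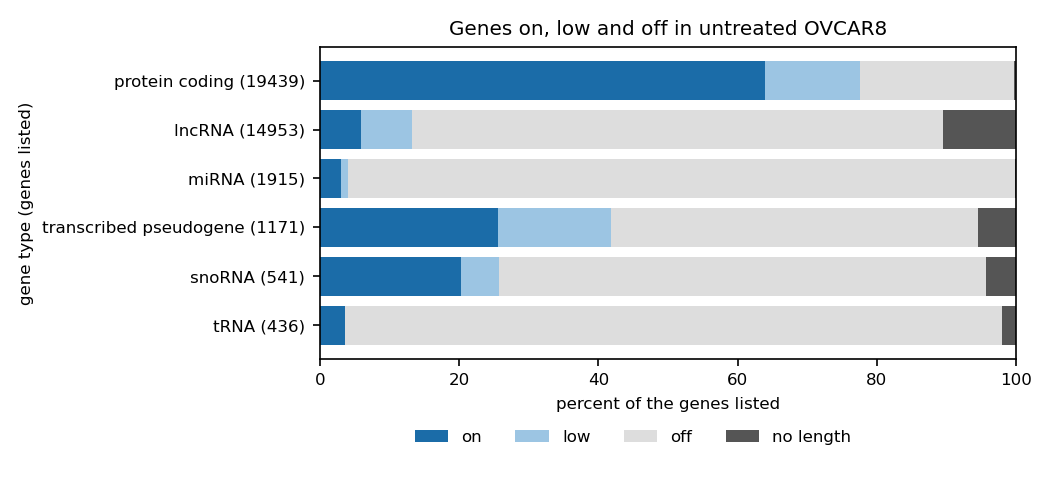
Percent of listed genes (x axis) that were on, low, off, or had over 3 reads but no length, by gene type (y axis, number of genes listed in brackets). Protein-coding genes were on in 63.9% of cases and lncRNA genes in 5.89%. Types of short RNA are on with fewer reads than long genes.

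The ovarian label was read against lineage markers, of which PAX8 was the clearest. This paired-box factor of the Mullerian ducts, retained in serous carcinoma, had levels of 98.5, 90.6 and 98.8. Of 14 Mullerian transcription factors 5 were on, 8 were low and 1 was off. The other members on were HOXA10 at 5.20 ± 0.67, the progesterone receptor gene PGR at 3.71 ± 0.19, HOXA11 at 2.52 ± 0.43 and HOXA13 at 2.20 ± 0.27. WT1, a factor of the serous lineage, had 14, 23 and 27 reads and a level of 0.64 ± 0.21. SOX17 had 7, 7 and 8 reads, the oestrogen receptor gene ESR1 had 6, 7 and 13, and EMX2 had 1 read in replicate 2 alone. PAX8 therefore stood far above the other genes of the list, and WT1, SOX17 and ESR1 were low.

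Surface and secreted antigens of serous cancer divided into genes that were on and genes near 0. Mesothelin, MSLN, had levels of 220, 202 and 225, and CD24 had 122, 124 and 118. L1CAM at 54.9 ± 6.0 and BCAM at 37.8 ± 4.4, both adhesion molecules, and the folate receptor gene FOLR1 at 8.34 ± 0.48 were also on. WFDC2, which encodes HE4, was on at levels of 4.34, 2.28 and 3.69, from 27, 14 and 23 reads. MUC16, which encodes CA-125, had 11, 21 and 24 reads over its very long transcript and a level of 0.039. The kallikrein genes KLK5, KLK6 and KLK8 had no read. In all 7 of 16 antigens were on, 3 were low and 6 were off.

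Markers of other ovarian tumour types were low or off, with 5 of 18 on. AMH, the anti-Mullerian hormone of granulosa cells, had 205, 116 and 258 reads. FOXL2, a factor of granulosa cells, at a level of 5.38, CDX2 at 4.86 and GATA6 at 3.62 were also on. The intestinal keratin KRT20, the trefoil factor TFF1 and GATA4 had no read. Among germ cell genes POU5F1 had 36, 35 and 61 reads and SALL4 had 140, 73 and 105, while NANOG and DPPA4 had none. Of 6 mesothelial genes LRRN4 was on at 13.9 ± 0.7 and CALB2 at 4.19 ± 0.93. Of the serous lineage markers named at the outset, PAX8 and MSLN were on while WT1 and MUC16 were low. In the lists that hold them 5 of 14 Mullerian factors and 7 of 16 antigens were on, against 63.9% of all protein-coding genes.

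Keratins of simple epithelia were among the high genes of the cells. KRT8 had levels of 2162, 2255 and 2178, its partner KRT18 had 1280, 1296 and 1266, and KRT7 had 726, 752 and 709. KRT19 was far lower at 1.12 ± 0.07. Of 7 basal and squamous keratins KRT17 alone was on, at 6.84 ± 0.66, and KRT5 had 3, 1 and 7 reads.

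Epithelial junction genes were on without E-cadherin. The desmosomal genes DSP, at 252 ± 15, DSG2, at 130 ± 2, and JUP, at 77.3 ± 6.4, were on, as were CLDN1 at 98.2 ± 12.2, the tight junction scaffold gene TJP1 at 66.0 ± 0.2 and the protease inhibitor gene SPINT2 at 141 ± 3. EPCAM was on at 29.2 ± 1.1. CDH1, which encodes E-cadherin, had 23, 24 and 27 reads and a level of 0.47 ± 0.04. CLDN3, CLDN7 and RAB25 were low as well, with levels of 0.86, 0.91 and 0.19. In total 18 of the 27 junction genes were on and 9 were low, against 63.9% on over all protein-coding genes.

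Factors that maintain the epithelial state were mostly low or off, with 4 of 11 on. GRHL2, which activates CDH1 in epithelia, had 1, 0 and 2 reads. OVOL1 and TP63 had at most 1 read in a replicate, and ELF3 had 10, 9 and 10 reads. KLF5 was on at 100.2 ± 12.5, and so were the splicing regulators ESRP2 at 24.7 ± 0.5 and ESRP1 at 5.81 ± 0.73.

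Several mesenchymal genes were expressed beside the keratins. Vimentin, VIM, had levels of 3114, 2923 and 3112, and fibronectin, FN1, had 1394, 1236 and 1365. TGFBI, a matrix protein induced by TGF-beta, was at 829 ± 38, the hyaluronan receptor gene CD44 at 257 ± 10, SPARC at 242 ± 5, the receptor kinase gene AXL at 218 ± 3 and N-cadherin, CDH2, at 112 ± 3. The level of CDH2 was thus above 100 in every replicate and that of CDH1 below 1 in every replicate. Fibroblast collagens were uneven. COL1A1 was at 109 ± 2, its partner chain gene COL1A2 had 23, 17 and 27 reads, and COL3A1 and the proteoglycan gene DCN were off. Of the 29 mesenchymal genes 17 were on, 8 were low and 4 were off, against 63.9% on over all protein-coding genes.

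Of 10 listed transcription factors linked to the epithelial-mesenchymal transition 9 were on. All of these but TWIST1 were below 20.5, the median level of the genes that were on. The 9 include KLF4, at 10.9 ± 2.7, which is set below with KLF5 and the ESRP genes and not with the drivers of the transition. TWIST1 was at 21.8 ± 1.7, SNAI1 at 15.3 ± 1.6, TWIST2 at 13.9 ± 2.4 and ZEB2 at 13.1 ± 1.3. ZEB1 was at 11.1 ± 0.3, SNAI2 at 5.19 ± 0.51, TCF4 at 1.94 ± 0.11 and PRRX1 at 1.38 ± 0.29. FOXC2, with 1, 0 and 4 reads, was the member not on. KLF4, KLF5 and both ESRP genes were thus on in the same samples as ZEB1 and ZEB2.

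Markers of other cells that an ovarian sample could hold were mostly low or off. Of 12 immune genes 2 were on, 5 were low and 5 were off. CD68, which encodes a lysosomal protein, was on at 63.6 ± 2.9. CD8A was on at levels of 2.34, 1.62 and 1.55, from 54, 37 and 36 reads. PTPRC, the leukocyte antigen CD45, had 1 read in replicate 3 alone, and CD3E had none. The summed level of the immune list was 66.0, 70.8 and 65.4, nearly all from CD68. Of 8 endothelial genes ERG at 2.71 and TIE1 at 1.60 were on, and CDH5, the defining cadherin of endothelium, had 1, 2 and 0 reads. All 6 red cell genes were off.

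**Figure D3:**
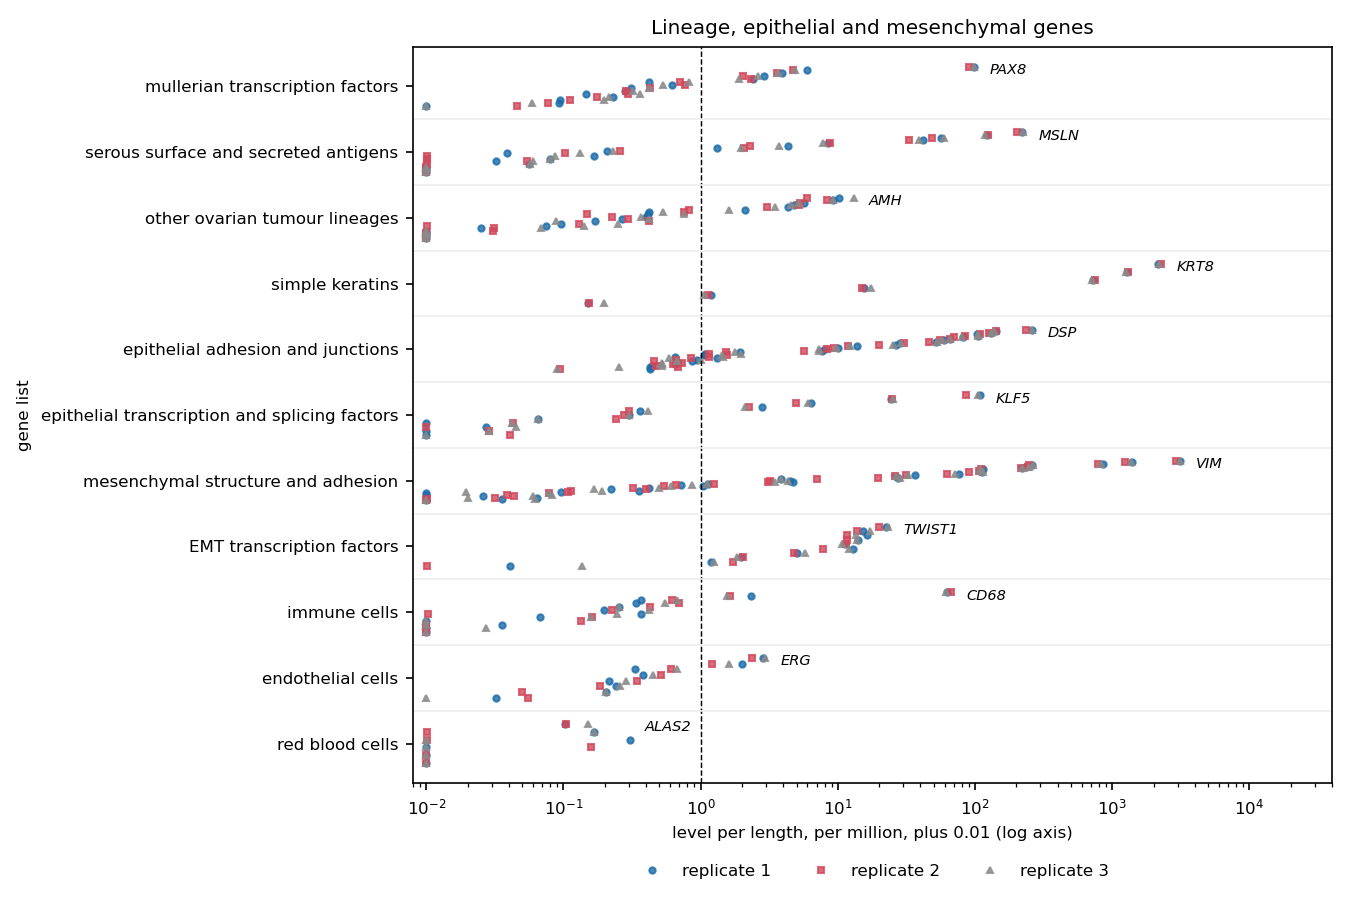
Level per length plus 0.01 (x axis, log scale) of each gene in 11 lists (y axis), with a point for each replicate, the name of the highest gene of each list, and a dashed line at the threshold of 1. KRT8 and VIM lie above 1000, whereas red blood cell genes lie below the dashed line.

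Genes that control cell cycle arrest and the response to DNA damage were mostly on. CDKN2A, which encodes the cell cycle inhibitor p16 and the unrelated protein p14ARF, was the highest gene of the list of arrest regulators, with levels of 532, 555 and 539. The reads do not separate those products, and merging all exons lowered the mean level of CDKN2A to 249. MDM2, a ubiquitin ligase gene, was at 11.7 ± 1.0, MDM4 at 3.33 ± 0.59 and the deubiquitinase gene USP7 at 62.3 ± 1.1. TP73 was on at 5.37 ± 0.19 and TP63 was off, so 11 of 12 members were on.

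Of 30 genes known to be induced by DNA damage 25 were on, 2 were low and 3 were off. The highest were PLK2 at 740 ± 64, GADD45A at 457 ± 58, CCNG1 at 174 ± 3 and BAX, a pore-forming death protein, at 120 ± 4. CDKN1A, which encodes the cell cycle inhibitor p21, had levels of 44.9, 36.6 and 39.3. GDF15, a secreted cytokine gene, had 2, 1 and 0 reads, and SPATA18 had 2, 3 and 2. EDA2R had none. Many genes of this list have other inducers, and a level does not show that a damage response was active.

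Homologous recombination genes were on in 25 of 25 cases, with a median level of 19.2. RAD51AP1, which promotes strand invasion, was the highest at 74.4 ± 5.6, followed by NBN at 54.4 ± 1.9 and EXO1 at 42.3 ± 1.7. BRCA1 had levels of 6.94, 7.24 and 6.51 and BRCA2 had 8.20, 7.18 and 8.10, with ranges that meet. Their partners BARD1 and PALB2 were at 6.28 ± 0.07 and 12.7 ± 1.4. DMC1, the meiotic recombinase, was the lowest at 1.58 ± 0.11.

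All 14 Fanconi anaemia genes were on, led by UBE2T, the ubiquitin-conjugating enzyme of the pathway, at 122 ± 7, and FANCI at 66.5 ± 1.8. All 10 mismatch repair and PARP genes were on. PARP1, the target of the PARP inhibitors, had levels of 229, 230 and 230. PARP2 was at 96.3 ± 1.3, the mismatch repair gene MSH6 at 66.7 ± 3.2 and the direct reversal enzyme gene MGMT at 12.4 ± 0.4. No gene of these 3 repair lists was low or off.

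Of 30 genes altered in ovarian cancers 28 were on, with ERBB4 and MYCN off. CTNNB1, beta-catenin, was the highest at 326 ± 7 and cyclin D1, CCND1, was at 310 ± 16. MYC had levels of 112, 96.6 and 114 and CCNE1, cyclin E1, had 40.7, 39.3 and 41.0. ERBB2 was at 41.4 ± 0.8, EGFR at 88.3 ± 6.4 and RB1 at 7.56 ± 0.53. Around CDKN2A on 9p21, where deletions are frequent in cancer, 11 of 15 listed genes were on, among them MTAP at 26.4 ± 0.7 and CDKN2B at 7.07 ± 0.75.

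Some secreted factors were also on. Among 27 interleukin genes 13 were on, 5 were low and 9 were off, against 63.9% on over all protein-coding genes. IL32 had levels of 1053, 1029 and 1021, and IL18, an inflammasome substrate, had 539, 549 and 554. The neutrophil attractant CXCL8 had 126, 124 and 146, and IL6 had 130, 108 and 147. IL1B was at 31.0 ± 1.4 and IL1A at 25.4 ± 3.3, whereas IL1RN, which encodes their natural antagonist, had no read. OSM, IL2, IL5 and IL17A had none either.

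Of the chemokines known to attract neutrophils, CXCL2, CXCL1, CXCL5 and CXCL3 were on and CXCL6 was off. CXCL2 was at 75.4 ± 10.4 and CXCL1 at 39.6 ± 3.6, while CXCL5 had levels of 33.3, 35.4 and 36.4. CCL20, which attracts lymphocytes and dendritic cells that carry CCR6, was at 64.4 ± 7.8. The interferon-inducible CXCL9 had no read, CXCL10 had 3, 3 and 5 and CXCL11 had 2, 1 and 3. CCL2, CCL3, CCL4 and CCL22 had no read. In total 7 of 21 chemokine genes were on and 11 were off, against 63.9% on over all protein-coding genes. CCL26 had 2, 15 and 2 reads, so its reads came almost entirely from replicate 2.

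Colony-stimulating factors were modest, with FLT3LG at 8.92 ± 0.97, CSF1 at 8.05 ± 0.83 and KITLG at 5.70 ± 0.49. CSF2 had 9, 5 and 1 reads and CSF3 had 6, 0 and 0. TNFSF9, the ligand of the T cell receptor 4-1BB, had levels of 74.2, 58.7 and 79.7, and TNF had 18.3, 20.3 and 19.2. The interferon genes IFNA1, IFNB1, IFNG and IFNL1 had no read, and IFNE, on 9p21, had 3, 2 and 1. In total 4 of the 13 interferon and TNF ligand genes were on, against 63.9% of all protein-coding genes.

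Binding proteins and growth factors were also transcribed. FSTL1, a follistatin-like glycoprotein, was at 300.4 ± 2.9, IGFBP3 at 295 ± 11, and TNFRSF6B, a decoy receptor for FASL, at 218 ± 7, while IGFBP2 and IGFBP5 were off. Of 27 growth factor genes for receptor tyrosine kinases and related ligands 17 were on, against 63.9% of all protein-coding genes. ANGPTL4 was at 222 ± 12, GAS6, the ligand of AXL, at 180.5 ± 2.8, FGF2 at 48.8 ± 2.5 and VEGFA at 39.7, 23.3 and 37.7. HGF had no read and IGF1 had 1 read in replicate 1 alone.

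In the TGF-beta family TGFB1 led with levels of 110, 92.9 and 115, and INHBA, the activin A subunit, was at 27.1 ± 4.8. Of the 15 genes on the list of this family 7 were on and 3, GDF15, LEFTY2 and BMP7, were off. The 7 include BMP1, at 29.6, which encodes a protease and not a ligand of the family. The WNT antagonists DKK3 and DKK1 were at 297 ± 6 and 146 ± 7, above every WNT ligand listed, of which WNT5B at 47.5 ± 1.7 was the highest. SFRP1 had no read. In total 8 of 16 WNT genes were on.

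Matrix proteases and their inhibitors gave some of the highest secreted transcripts. MMP1, the interstitial collagenase, had levels of 1796, 1929 and 1867, and TFPI2, a protease inhibitor gene, had 524, 580 and 547. TIMP1 was at 233 ± 10 and TIMP2 at 220 ± 12, while MMP2 had 1, 0 and 2 reads and MMP3 and TIMP3 had at most 1 in a replicate. Of the 23 genes 16 were on. Other secreted products were LGALS1, galectin-1, at 3077, 3208 and 3139, CCN1 at 2320 ± 44, MIF at 1638 ± 19 and PSAP at 770 ± 33. SPP1, osteopontin, and LCN2 were low, with 5, 8 and 8 and 9, 7 and 6 reads.

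**Figure D4:**
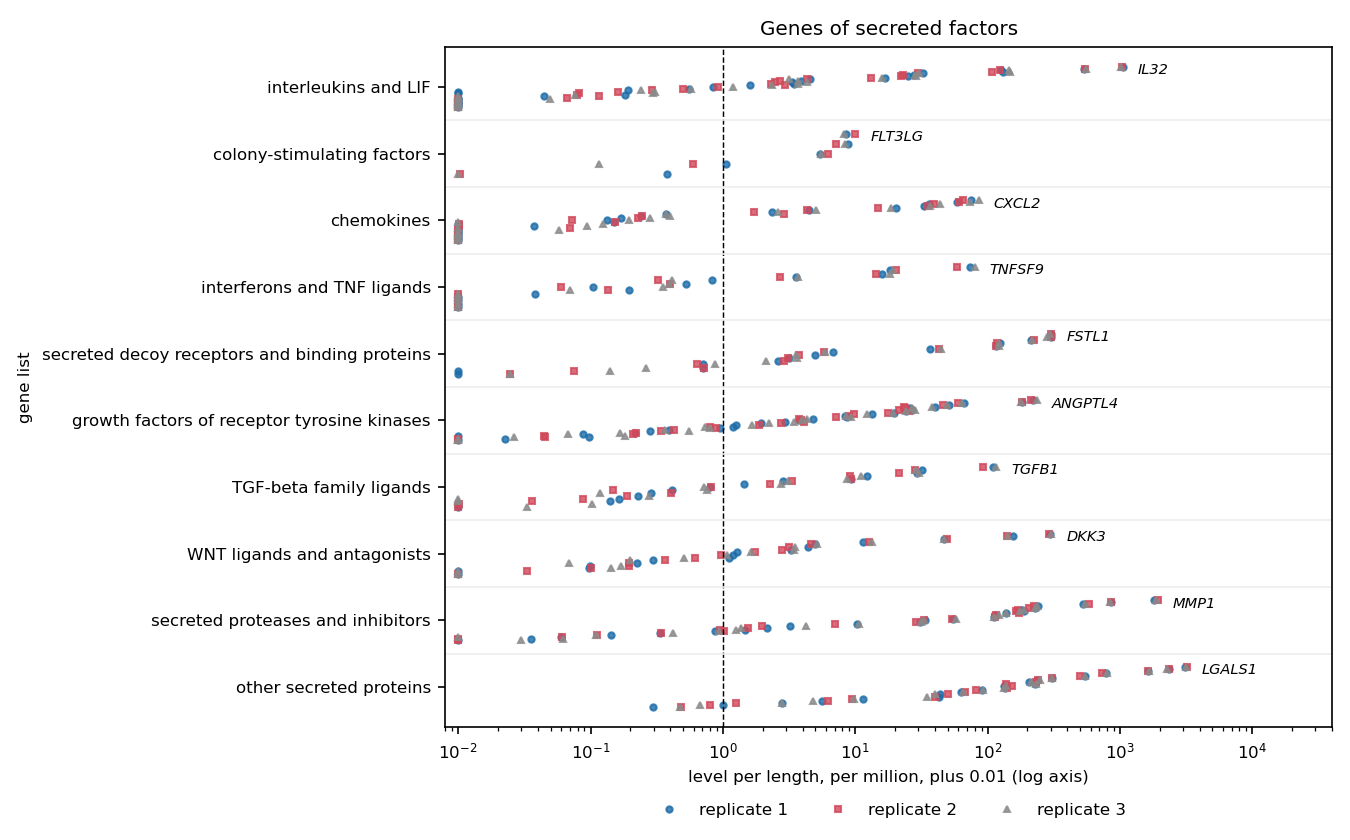
Level per length plus 0.01 (x axis, log scale) of each gene in 10 lists of secreted factors (y axis), with a point for each replicate, the name of the highest gene of each list, and a dashed line at the threshold of 1. LGALS1 and MMP1 lead their lists, and IFNB1 and IFNG lie at 0.

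Growth and stress genes complete the description. All 20 proliferation genes were on, with PCNA at 558 ± 21, TOP2A at 222 ± 9 and MKI67 at 94.3 ± 1.7. Of 15 genes of cholesterol synthesis and uptake 14 were on, among them SQLE at 201 ± 8. Immediate early genes were on, with IER3 at 432 ± 19, FOSL1 at 302 ± 15 and JUN at 290 ± 5, and FOS was lower at 18.3 ± 2.1.

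The spread between the 3 replicates was then measured. Each pair of libraries was compared gene by gene with an exact two-sided binomial test of the recovered reads, given the library totals, over 16070 genes with a mean of at least 10 reads. A gene was called at a Benjamini-Hochberg adjusted p under 0.05. Such a call says that 2 libraries differed by more than counting error and not that a condition changed. Replicates 1 and 3 differed in 325 genes (2.02%), replicates 1 and 2 in 3266 (20.3%) and replicates 2 and 3 in 3296 (20.5%). The chi-square per degree of freedom, which is 1 for counting error alone, was 2.01, 7.33 and 7.23 for the same pairs.

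Replicate 2 thus stood apart, although the correlation of log2 values across genes was 0.99 for each pair. It differed from both other replicates in 2102 genes, 889 higher (5.53% of genes tested) and 1213 lower (7.55%). The balance of the directions depends on the scaling. With median-of-ratios sizes 1201 (7.47%) were higher and 911 (5.67%) lower, and with the sizes of the deposited adjustment 1385 (8.62%) and 801 (4.98%). Between replicates 1 and 2, 1365 genes (8.49%) were higher and 1901 (11.8%) lower in replicate 2, so that 41.8% of the calls were higher with library totals, 54.3% with median-of-ratios sizes and 60.4% with the sizes of the deposited adjustment. Differences were small, with 142 of the 3266 genes called between replicates 1 and 2 past 2-fold. The spread beyond counting came to a coefficient of variation of 6.91% over the 3 replicates and 4.07% without replicate 2.

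Genes of amino acid stress were lower in replicate 2. ATF4 is the transcription factor of the integrated stress response and activates genes of amino acid synthesis and import. Of 13 genes of its list tested 12 were lower in replicate 2 than in both others and none was higher, against 7.55% of all genes, with a median log2 ratio of -0.54 to replicate 1 and -0.61 to replicate 3. The median over all genes tested was -0.02 for both. CHAC1, which degrades glutathione, had 876, 229 and 751 reads. SLC7A11, the cystine importer, had 2850, 1044 and 2889, and ASNS, asparagine synthetase, had 1260, 702 and 1212. In each of these genes the value of replicate 2 lay below those of both others, which were close together. ATF4 itself had 15070, 11823 and 15488 reads. The same 12 of 13 were counted with both other scalings. This list and those of hypoxia, heat shock, proliferation and mesenchymal genes were written with earlier results of these data known. Their counts therefore describe these libraries and are not an independent test.

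Hypoxia genes were lower in replicate 2 in 15 of 20 cases, against 7.55% of all genes, with medians of -0.27 and -0.29 on the log2 scale, and none was higher. NDRG1 had 19963, 12098 and 21358 reads, the hexokinase gene HK2 had 3278, 2182 and 3274 and the glucose transporter gene SLC2A1 had 4750, 3219 and 4616. The count was again 15 with both other scalings. DDIT4, an inhibitor of mTOR complex 1 counted in this list, had 5419, 2078 and 5269 reads and is also known as an ATF4 target. HIF1A, the oxygen-sensitive factor of this response, went the other way with 4006, 5419 and 3704 reads. HIF1A-AS2, which overlaps it, had 769, 1103 and 697, and the reads of the pair cannot be told apart.

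Heat shock genes were higher in replicate 2. HSPA1A had 1371, 3501 and 1559 reads and HSPA1B had 1541, 3307 and 1602, and since these copies are nearly identical their reads may be split between them. The co-chaperone gene DNAJB1 had 2647, 3937 and 2942, HSPH1 had 6516, 7901 and 6508 and HSP90AA1 had 71817, 88169 and 72633. HSPA2, with 356, 510 and 321 reads, moved in the same direction. In the combined list of immediate early and heat shock genes 6 of 15 were higher in replicate 2, against 5.53% of all genes, 5 of them chaperone genes and the sixth FOSL1. The 3 lower ones, DUSP1, EGR1 and ATF3, stood against 7.55%.

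Stretches of the CHAC1 and HSPA1B promoters are shown because each holds a searched element, given with its position in RefSeq (GRCh38.p14) and the element in capitals. The CHAC1 promoter holds TGATGCAA, the composite site of ATF4 and C/EBP factors, on the minus strand, so that its reverse complement is in capitals. The HSPA1B promoter holds TATAAA, the core of a TATA box, which is not particular to heat shock genes.
CHAC1 (chr15:40953251-40953280, plus strand): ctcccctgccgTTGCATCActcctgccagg
HSPA1B (chr6:31827697-31827726, plus strand): tccacgacgactTATAAAagccgaggggcg

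TGATGCAA was searched on both strands from 250 bases before to 50 after the start. It was found in 1 of 12 ATF4 genes with a start in the table, in 0.923% of all starts and in 0.449% over the genes on. Over the genes lower in replicate 2 it was found in 15 of 973 (1.54%), and over those higher in 2 of 746 (0.268%). The heat shock element, as TTC, GAA and TTC in turn with NN between them, was searched in the same way. It was found in 0 of 13 immediate early and heat shock genes, in 0.487% of all starts and in 0.299% over the genes on. Over the genes lower in replicate 2 it was found in 2 of 973 (0.206%), and over those higher in 6 of 746 (0.804%). TATAAA, searched on the sense strand from 40 to 15 bases before the start, was found in 6 of these 13 genes (46.2%), namely FOS, FOSB, JUNB, DUSP1, HSPA1A and HSPA1B, in 2.54% of all starts and in 1.59% over the genes on. The hypoxia core ACGTG, searched on both strands, was found in 9 of 17 hypoxia genes (52.9%) and in 21.6% of all starts. It was found in 2885 of the 10688 genes on with a start. Over the genes lower in replicate 2 the share was 27.6%, and over those higher 29.5%. Whether these elements act in these cells was not tested.

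**Figure D5:**
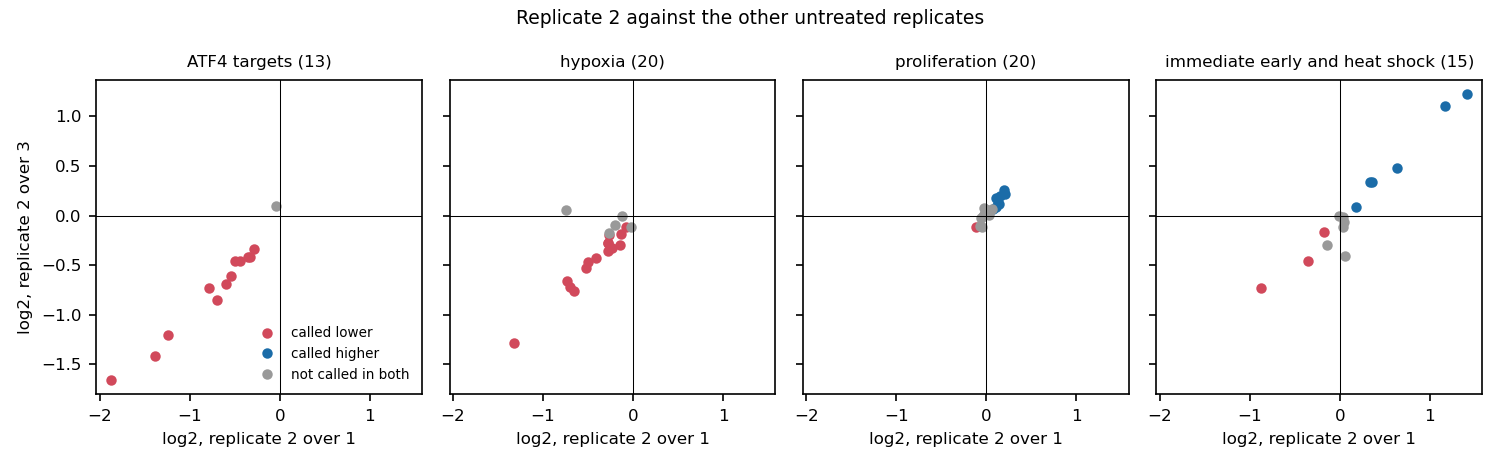
Log2 ratio of recovered reads, scaled by library totals, of replicate 2 over replicate 1 (x axis) and over replicate 3 (y axis), for the tested genes of 4 lists, with their number in brackets. Points show genes called lower or higher in both pairs, or not called in both. ATF4 and hypoxia genes lie below 0 on both axes with few exceptions.

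Smaller shifts ran through other groups. Of 77 cytosolic ribosomal protein genes 66 were higher in replicate 2 than in both others and none was lower, against 5.53% and 7.55% of all genes, with a median of 0.13 and 0.11 on the log2 scale. With the other scalings 73 and 75 were higher. Of 20 proliferation genes 8 were higher, against 5.53%, and 1, MCM2, was lower, and CCNB1 had 6113, 6756 and 6047 reads. Of 22 tested mesenchymal genes 8 were lower, against 7.55% of all genes, and none was higher, with LOX at 1534, 1081 and 1581 reads. The 8 became 6 with median-of-ratios sizes and 5 with the sizes of the deposited adjustment, against 5.67% and 4.98% of all genes. Among 9 tested Mullerian factors PAX8 alone was called in both pairs, and with both other scalings 0 of the 9 were called.

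Genes that set replicate 2 apart were named by rule, as the 10 highest and 10 lowest of those with a mean of at least 100 reads. They were called in both pairs and not between replicates 1 and 3, and such calls held for 5.34% of genes tested in the higher and 7.37% in the lower direction. The last condition leaves out HSPA1A, with a smaller log2 ratio of 1.22, and HSPA8, with 25963, 42775 and 27108 reads and a smaller ratio of 0.72. HSPA1B, HIF1A-AS2, HSPA2, ZNF485, C2orf74, EEF1AKMT4, HIF1A, C19orf71, LINC01116 and ADGRE1 were the higher ones, with log2 ratios of 0.46 to 1.10 in the pair with the smaller ratio. CHAC1, SLC7A11, DDIT4, LOC105378936, SESN2, ADM2, MIOX, SLC7A5, BBC3 and SLC1A4 were the lower ones, with ratios of -0.84 to -1.66. ADM2 and MIOX overlap each other, LOC105378936 overlaps PHGDH, C19orf71 overlaps MFSD12 and EEF1AKMT4 overlaps ALG3, so the reads of these genes are uncertain. SLC7A11, SLC7A5 and SLC1A4 encode amino acid transporters, and SESN2 encodes a leucine sensor. SLC7A5 had 6916, 3226 and 6949 reads, and SESN2 had 1908, 774 and 1859. BBC3, which encodes the death protein PUMA and is also on the list of damage response genes, had 374, 178 and 390.

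Transcript length and base composition moved with the difference of replicate 2. The median log2 ratio of replicate 2 to replicate 1 ran from 0.10 in genes with exons of 200 to 1000 bases to -0.09 in genes of 8000 bases or more. Across 11939 genes, which are not independent replicates, Spearman's rho between length and the ratio was -0.28 to replicate 1 and -0.26 to replicate 3, and -0.04 for replicate 3 over replicate 1. For GC content it was -0.19, -0.24 and 0.08. The median exon length of the ribosomal protein genes was 785 bases, against 3142 over all genes tested. The part of length and GC content in these shifts was not tested.

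Between replicates 1 and 3 the differences were few. Chosen after their values were seen, the genes with at least 100 reads on average that differed most were RNA45SN2, a ribosomal RNA repeat that shares reads with other copies, with 134, 172 and 266 reads, RNA28SN2, of the same repeat family, with 87, 125 and 151, CILP2 with 176, 143 and 101 and VEPH1 with 84, 115 and 144. Leaving out replicate 2 left the number of genes on within 1.5 times of its value in all 36 lists.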

How the data were processed

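RNA was measured by poly(A) RNA-seq in OVCAR8 cells, and the 3 DMSO samples, grouped by their titles, were used. The signal values that the authors deposited are reads adjusted to a common library size. The submitters' processing notes name HISAT2, HTSeq 0.12.4, DESeq2 and hg19, whereas the methods name hg38, and 99.96% of 26990 symbols found in GENCODE v44 overlapped it in position on GRCh38. Strand use and the adjustment are not described. Inverting a negative binomial quantile adjustment (dispersion 0.0027) gave whole reads, within 0.02, for 100% of 48081 values of 10 or more. In a simulation on 7645 genes, 100% of reads came back exactly.

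Levels used GENCODE v44 canonical exon lengths, which covered 99.7% of reads. Replicate pairs were compared by exact binomial tests (SciPy) in place of a count model, since the file holds adjusted values. In simulated pairs of 16070 genes with 200 changed by 2-fold, 81% were called and 5.26% of calls were false, and 0 genes were called in an unchanged pair. The tests cover counting error only. Their p-values measure how far 2 libraries differ beyond it, with no term for the spread between samples. These samples may be technical replicates. The members and gene lists were chosen with earlier results of these data known. Named genes were the 20 highest by level, the 10 with most reads, members of each list (at least the 2 highest and those at 0), up to 5 of each noncoding type, and 10 genes each way for the library apart. Other scalings, length models, thresholds and filters, and leaving out each replicate, were tried. Some genes that this rule names are not reported here. The table's columns of the treated samples were not used here.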

Additional observations from a re-analysis of the deposited data

How the results depend on the processing

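No paired analysis was possible because only 1 group was described and no result compares groups. The share of reads held by the 10 most abundant genes was 5.18% ranked by reads and 4.33% ranked by level per length. With the sizes of the deposited adjustment, genes higher in replicate 2 than in both others went from 889 to 1385, those lower from 1213 to 801, and those lower in replicate 3 than in 2 from 1349 to 2052. Among the lists, mesenchymal genes lower in replicate 2 went from 8 to 6 with median-of-ratios sizes and to 5 with those of the deposited adjustment, and the call of PAX8 was lost with both. Beyond these, the counts of genes on and off over all genes, gene type shares and counts of genes called between replicates over all genes stayed within 1.5 times or 1 SD of their values under each alternative tried: recovered reads, merged exons, no length, thresholds of 0.5 and 2, no filter on low counts, a minimum mean of 100 reads, rounded adjusted values, protein-coding genes only, both other scalings (the sizes of the deposited adjustment were chosen after seeing the data) and each replicate left out. Of the named levels, 436 of 589 moved beyond 1 SD with merged exons and none with recovered reads. A mean of 3 cannot move by 1 SD when 1 replicate is left out, so that comparison bears on counts alone. The number of genes on moved beyond 1.5 times in 1 list at a threshold of 0.5 and in 3 lists at 2. Without replicate 3, basal keratins on went from 1 to 2. Depth limits the genes with few reads: at 1 to 10 adjusted reads the median coefficient of variation was 60.2%, and at 1000 to 10000 it was 3.94%.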
